A study of Mus musculus with 7 samples.

Results

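The subject is a group of 9 genes that make, bind, degrade or sense retinoic acid: Aldh1a1, Aldh1a2, Aldh1a3, Dhrs3, Stra6, Crabp2, Cyp26b1, Rara and Rarg. They were picked by symbol from the 24537 genes of a table of FPKM values, which are fragments scaled to transcript length and to sequencing depth, and all 9 had a row. They were picked with results of the same libraries already known, so their values and fold changes are given as a description and carry no test. Expression had been measured by RNA sequencing in brain-resident macrophages, the microglia, gated on intermediate CD45 and on CX3CR1 from glioma-bearing brains of C57BL/6 mice at day 35 after implantation of the 005 glioma, a mouse glioblastoma model. The 3 groups were mice given anti-CTLA4 together with depletion of CD4 T cells (n = 3), mice given anti-CTLA4, an antibody to a checkpoint receptor of T cells, alone (n = 2), and mice given control IgG (n = 2). All of them carried the tumour. The sources used here do not give age, sex or any pooling of animals. No source used here ties replicates to different mice. The p-values thus set differences between groups against the spread between these libraries, and part of that spread may be technical.

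Retinoic acid is made from vitamin A. Retinol, which the membrane protein STRA6 can take up from its carrier in plasma, is oxidised to retinaldehyde, and the dehydrogenases ALDH1A1, ALDH1A2 and ALDH1A3 oxidise retinaldehyde irreversibly to retinoic acid, while DHRS3 reduces retinaldehyde back to retinol. CRABP2 carries retinoic acid to the nucleus, CYP26 enzymes inactivate it, and the receptors RAR alpha, beta and gamma, paired with RXR, switch genes at retinoic acid response elements. In the brain, ALDH1A2 is known as the enzyme of the meninges, and ALDH1A3 is known in human glioma as an enzyme of mesenchymal-like tumour cells.

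Several facts about the libraries come before the results. A conflict touches the anti-CTLA4 group: its column names hold sheet numbers 29 and 30, its labels hold 10 and 11, and the header uses 29 and 30 for knockouts of the interferon-gamma receptor. The name was followed, the group is written as the libraries labelled anti-CTLA4, and every direction that involves it depends on that name. All 12 homeostatic microglia markers, among them P2ry12, Tmem119 and Cx3cr1, were at 1 FPKM or more in every library. Their summed level was 3415 to 5534 FPKM with CD4 depletion, 7482 and 11112 FPKM in the libraries labelled anti-CTLA4, and 4979 and 3978 FPKM with IgG. Replicate 1 of the depletion group stood apart, with summed monocyte markers at 1043 FPKM against 40.9 to 42.2 FPKM in its 2 partners, and summed neutrophil markers at 590 FPKM against 64.1 and 102 FPKM. For Stra6, Rara and Rarg, fold changes are also given without that library. Of 4 Y-linked genes, Uty, Ddx3y and Eif2s3y separated the depletion libraries, all higher, from the other 4 (Uty at 1.60 to 2.09 FPKM against at most 0.494 FPKM), while Kdm5d overlapped. Xist, the transcript of the inactive X chromosome, was at 2.16 to 6.08 FPKM over all 7 libraries. Its mean was 2.80 FPKM with CD4 depletion, 4.97 FPKM in the libraries labelled anti-CTLA4 and 2.32 FPKM with IgG. CD4 depletion and IgG overlapped for Xist. The sex of the mice and the depletion cannot be told apart.

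The 2 retinaldehyde dehydrogenases with substantial levels, Aldh1a2 and Aldh1a3, had opposite patterns. Aldh1a2, on chromosome 9 from 71215789 to 71296243 in build mm10, stood at 27.4 and 12.98 FPKM in the libraries labelled anti-CTLA4, against 0.342 and 1.38 FPKM with IgG. With CD4 depletion it stood at 0.418, 4.62 and 0.725 FPKM. Both libraries labelled anti-CTLA4 were above all 5 others. The log2 fold change over IgG was 3.48 (SE 0.68), and that of CD4 depletion over anti-CTLA4 was -3.06 (SE 0.62). These are differences on the log2(FPKM + 1) scale, which understates the change of low genes. Low values corresponded to few reads: 0.342 FPKM stood for 65 reads and 27.4 FPKM for 5766 reads by the depth that the low values imply.

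Aldh1a3, on chromosome 7 from 66390893 to 66427477, stood at 3.97 and 0.763 FPKM in the libraries labelled anti-CTLA4, against 38.9 and 19.97 FPKM with IgG. With CD4 depletion it stood at 32.0, 20.1 and 27.7 FPKM. Both libraries labelled anti-CTLA4 were below all 5 others. The log2 fold change over IgG was -3.29 (SE 0.51), and that of CD4 depletion over anti-CTLA4 was 3.20 (SE 0.46). The size hung on which library was kept: without anti-CTLA4 replicate 1 the 2 values were -4.04 and 3.95, and without replicate 2 they were -2.54 and 2.45. In bulk RNA, fewer cells of a type and less RNA per cell cannot be told apart, here and in every result that follows.

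Aldh1a1, on chromosome 19 from 20601982 to 20643462, was low and even, at 1.28, 2.11 and 2.96 FPKM with CD4 depletion, 2.95 and 1.67 FPKM in the libraries labelled anti-CTLA4, and 1.58 and 2.82 FPKM with IgG. The groups overlapped in every comparison, and the log2 fold changes were 0.05 (SE 0.34) for anti-CTLA4 over IgG and -0.10 (SE 0.31) for CD4 depletion over anti-CTLA4.

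FPKM values are per length, so the 3 enzymes can be set against each other within a library. Aldh1a3 made up 95.0%, 75.0% and 88.3% of their summed FPKM with CD4 depletion, 11.6% and 4.95% in the libraries labelled anti-CTLA4, and 95.3% and 82.6% with IgG. Aldh1a2 made up 1.24%, 17.2% and 2.31% with CD4 depletion, 79.9% and 84.2% in the libraries labelled anti-CTLA4, and 0.837% and 5.71% with IgG. The main transcript was thus Aldh1a2 in both libraries labelled anti-CTLA4 and Aldh1a3 in the other 5. The summed level did not separate the groups. It was 33.7, 26.9 and 31.4 FPKM with CD4 depletion, 34.4 and 15.4 FPKM in the libraries labelled anti-CTLA4, and 40.8 and 24.2 FPKM with IgG. These shares are ratios within a library and do not depend on how libraries were scaled to each other.

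**Figure D1:**
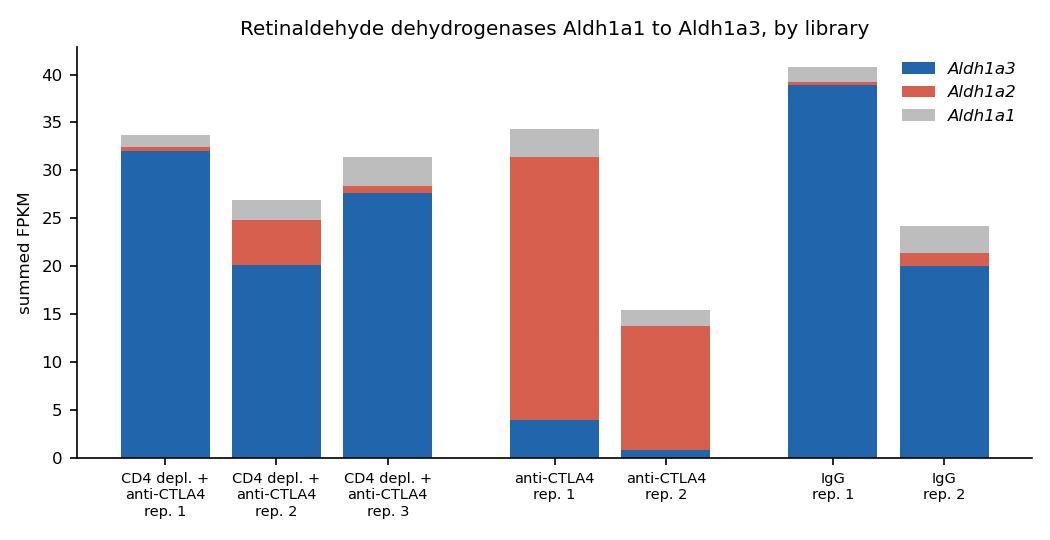
Stacked bars give the FPKM of Aldh1a3, Aldh1a2 and Aldh1a1 in each of the 7 libraries, grouped by treatment, with summed FPKM on the vertical axis. Aldh1a2 fills 79.9% and 84.2% of the bars labelled anti-CTLA4, and Aldh1a3 fills 75.0% to 95.3% of the other 5.

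Stra6, the retinol uptake receptor, lies on chromosome 9 from 58129088 to 58153997. It stood at 7.74 and 7.30 FPKM in the libraries labelled anti-CTLA4, against 0.926 and 0.783 FPKM with IgG, and at 12.7, 4.80 and 2.74 FPKM with CD4 depletion. Every depletion library and both libraries labelled anti-CTLA4 were above both IgG libraries. The log2 fold change was 2.20 (SE 0.52) for anti-CTLA4 over IgG and 1.85 (SE 0.48) for CD4 depletion over IgG. The highest of the 7 values came from replicate 1 of the depletion group, the library with the monocyte and neutrophil markers, and without it the second value was 1.33. Between CD4 depletion and anti-CTLA4 the libraries overlapped, with a log2 fold change of -0.35 (SE 0.48), which was -0.87 without that library and 0.47 under the scaling to microglia markers described next.

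Dhrs3, which returns retinaldehyde to retinol, lies on chromosome 4 from 144892827 to 144927645 and had the highest mean of the 9 genes. It stood at 50.6 and 54.1 FPKM in the libraries labelled anti-CTLA4, against 27.2 and 21.3 FPKM with IgG. With CD4 depletion it stood at 39.8, 30.4 and 30.4 FPKM. The 3 groups did not overlap, with CD4 depletion between the others. The log2 fold change was 1.09 (SE 0.20) for anti-CTLA4 over IgG and -0.64 (SE 0.18) for CD4 depletion over anti-CTLA4. The direction of the second depended on scaling: with libraries set to the same level of homeostatic microglia markers, which were themselves highest in the libraries labelled anti-CTLA4, it was 0.28, and the first became 0.19. Of the 9 genes, all that were tested except Aldh1a1 kept the sign of the fold change of anti-CTLA4 over IgG under each of the 13 alternatives.

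Crabp2, the carrier of retinoic acid, lies on chromosome 3 from 87948693 to 87953372. It stood at 1.48, 1.58 and 2.55 FPKM with CD4 depletion, 1.34 and 0.943 FPKM in the libraries labelled anti-CTLA4, and 0.966 and 0.279 FPKM with IgG. All 3 depletion libraries were above the other 4, and anti-CTLA4 and IgG overlapped. The log2 fold change of CD4 depletion over IgG was 0.84 (SE 0.27), and 0.53 without IgG replicate 2, whose value stood for 21 reads. With a pseudocount of 0.1 in place of 1 it was 1.59. Cyp26b1, an enzyme that inactivates retinoic acid, lies on chromosome 6 from 84571414 to 84593908 and was between 0.068 and 0.336 FPKM in all 7 libraries, or 30 to 142 reads. It did not reach 1 FPKM in any library and was the 1 gene of the 9 that missed the expression filter for testing (at least 1 FPKM in at least 2 libraries).

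The retinoic acid receptors Rara and Rarg were lower in both libraries labelled anti-CTLA4 than in the other 5. Rara, on chromosome 11 from 98939711 to 98974942, stood at 1.23 and 0.491 FPKM there, against 3.36 and 2.47 FPKM with IgG. It stood at 8.24, 1.92 and 2.70 FPKM with CD4 depletion. The log2 fold change was -1.09 (SE 0.52) for anti-CTLA4 over IgG and 1.35 (SE 0.47) for CD4 depletion over anti-CTLA4, or 0.85 without depletion replicate 1, which held the highest value. For CD4 depletion over IgG it was 0.25 (SE 0.47), and -0.24 without that library. Rarg, on chromosome 15 from 102234938 to 102246500, stood at 1.196 and 0.647 FPKM in the libraries labelled anti-CTLA4, against 3.41 and 2.14 FPKM with IgG, and at 4.85, 2.61 and 2.82 FPKM with CD4 depletion. Its log2 fold changes were -0.97 (SE 0.31) for anti-CTLA4 over IgG and 1.18 (SE 0.28) for CD4 depletion over anti-CTLA4. The second was 0.97 without depletion replicate 1, which held the highest value of Rarg. For CD4 depletion over IgG the log2 fold change of Rarg was 0.21 (SE 0.28). Its sign turned without that library, and also without IgG replicate 2.

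**Figure D2:**
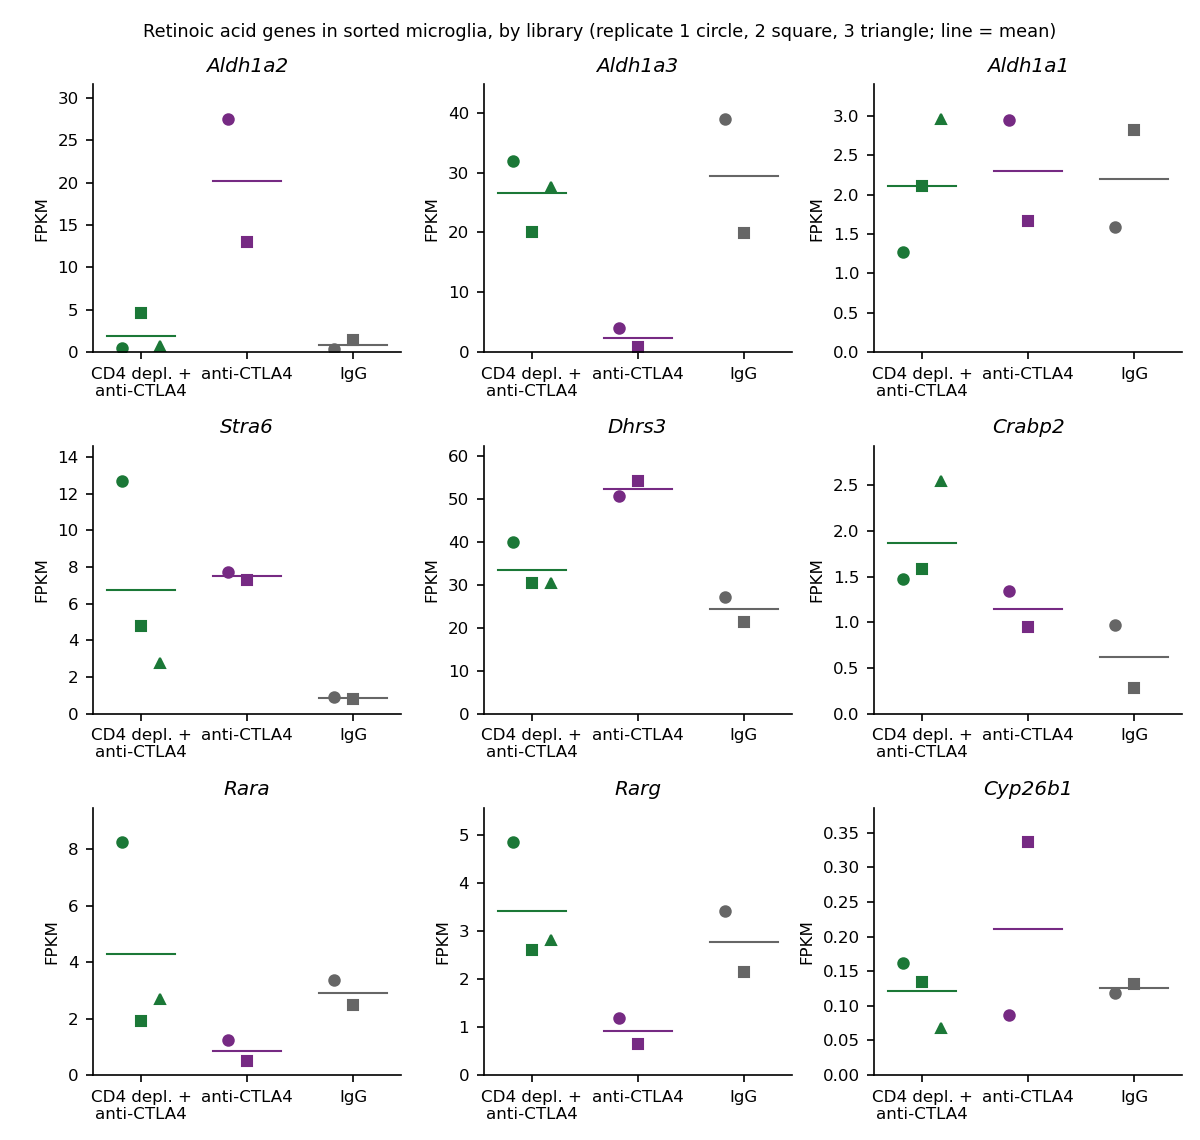
FPKM of the 9 genes in each library, 1 panel per gene with its own linear axis from 0, grouped from left to right as CD4 depletion with anti-CTLA4, anti-CTLA4 and IgG. Points are libraries and lines are group means: Aldh1a2 and Dhrs3 are highest, and Aldh1a3, Rara and Rarg lowest, in the 2 libraries labelled anti-CTLA4.

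**Figure D3:**
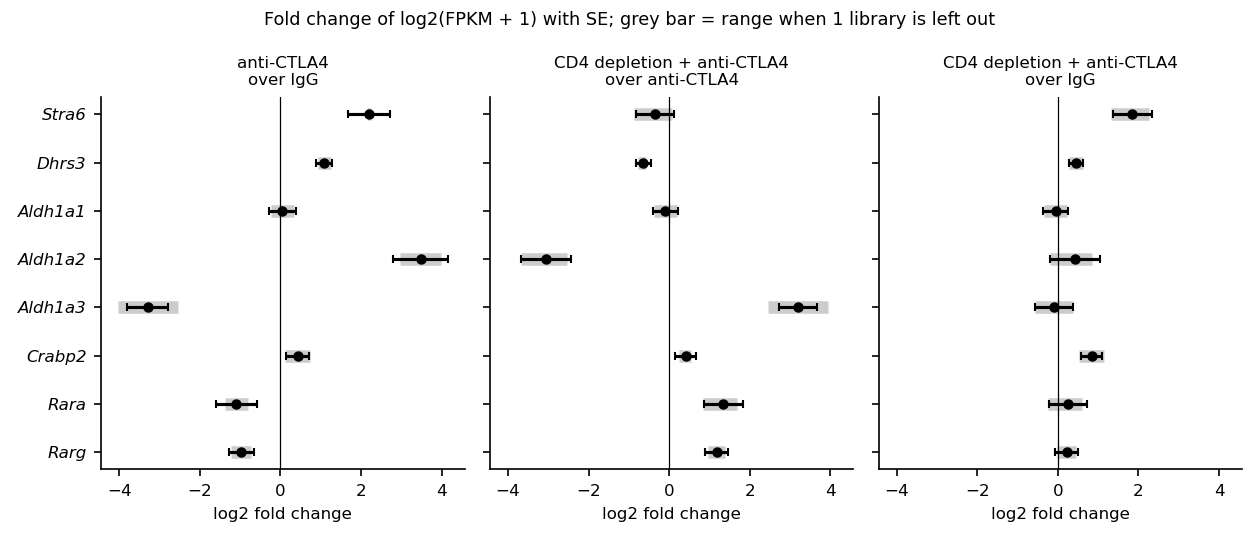
Log2 fold changes of the 8 genes that passed the expression filter in the 3 comparisons, on the log2(FPKM + 1) scale, with bars of 1 SE and a grey band for the range when 1 library is left out. Aldh1a2 and Aldh1a3 lie at 3.48 and -3.29 for anti-CTLA4 over IgG and at 0.42 and -0.09 for CD4 depletion over IgG.

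In the fit across the 13028 genes that passed the filter, limma called 38.0% of all genes between anti-CTLA4 and IgG and 29.4% between CD4 depletion and anti-CTLA4. Among the 8 genes tested, 3 were called higher in anti-CTLA4 than in IgG (Aldh1a2, Dhrs3 and Stra6) and 2 lower (Aldh1a3 and Rarg), where 9.29% and 28.8% of all tested genes were called. Between CD4 depletion and anti-CTLA4, 2 were called higher (Aldh1a3 and Rarg) and 2 lower (Aldh1a2 and Dhrs3), where 22.8% and 6.59% of all tested genes were called. Their median log2 fold change was 0.24 in the first comparison and 0.16 in the second, beside -0.31 and 0.27 over all tested genes. These comparisons share the libraries labelled anti-CTLA4. In CD4 depletion against IgG, limma called 0% of genes, these 8 included, while 851 genes (6.53%) had an unadjusted p below 0.05. Libraries of those 2 groups did not overlap for Stra6, Dhrs3 and Crabp2, all higher with depletion, where 11.0% of all tested genes were higher without overlap, and 0 of the 9 were lower without overlap, where 16.2% were. In the first comparison 6 of the 9 genes had no overlap, 3 higher and 3 lower, where 22.8% and 54.1% of all tested genes did so. In the second, 4 were higher and 2 lower without overlap, where 44.7% and 15.7% did so. Nothing is read from these counts, since the same libraries led to the choice of genes.

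A wider list of 46 retinoid genes outside the 9 was taken by function, and 30 of them passed the filter. It was also chosen with earlier results of these data known, so its calls are no independent support. In anti-CTLA4 against IgG, 6 rose, 6 fell and 18 did not pass (limma, adjusted over all genes). Between CD4 depletion and anti-CTLA4, 6 rose, 4 fell and 20 did not pass. Over all tested genes, 9.29% were called higher and 28.8% lower in the first comparison, and 22.8% and 6.59% in the second. The splits of the list moved with scaling. In the first comparison 7 rose and 2 fell with median-of-ratios scaling, 7 and 3 with quantile normalization, and 2 and 12 with libraries set to the homeostatic microglia markers. In the second the same 3 scalings gave 4 and 9, 4 and 7, and 14 and 1. Between CD4 depletion and IgG limma called 0 of the 30, and 1 had an unadjusted p below 0.05. Without anti-CTLA4 replicate 2, limma called 0 genes of the table in either of the first 2 comparisons, and without IgG replicate 1 it called 0 in the first.

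Rarb encodes the receptor that is itself a textbook target of retinoic acid, and of the wider list it had the largest change among genes that passed in anti-CTLA4 against IgG. It stood at 3.89 and 1.38 FPKM in the libraries labelled anti-CTLA4, against 19.5 and 11.8 FPKM with IgG, and at 9.71, 21.1 and 15.9 FPKM with CD4 depletion. It fell by 2.25 on the log2 scale (SE 0.45, limma adjusted p = 0.0125) in anti-CTLA4 against IgG. It rose by 2.22 (SE 0.41, limma adjusted p = 0.0146) in CD4 depletion against anti-CTLA4. Both calls were lost without anti-CTLA4 replicate 2, at -1.73 and 1.70, the first also without IgG replicate 1, at -1.91, and the second without depletion replicate 3, at 2.17. Rarb was the main receptor transcript in every library, with 42.6% to 82.3% of the summed FPKM of Rara, Rarb and Rarg with CD4 depletion, 61.6% and 54.8% in the libraries labelled anti-CTLA4, and 74.2% and 71.9% with IgG. The sum of the 3 receptors was 22.8, 25.6 and 21.4 FPKM with CD4 depletion, 6.32 and 2.52 FPKM in the libraries labelled anti-CTLA4, and 26.3 and 16.4 FPKM with IgG. Unlike the sum of the dehydrogenases, that of the receptors was lower in both libraries labelled anti-CTLA4 than in all 5 others.

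Cyp26a1, which inactivates retinoic acid and is the other classic target, was lower in both libraries labelled anti-CTLA4 than with IgG, while CD4 depletion overlapped both. It stood at 1.00 and 0.013 FPKM in the libraries labelled anti-CTLA4, against 4.75 and 2.64 FPKM with IgG, and at 0.635, 2.61 and 4.17 FPKM with CD4 depletion. The lowest value stood for 2 reads. Its log2 fold change of -1.68 (SE 0.57) for anti-CTLA4 over IgG did not pass (limma adjusted p = 0.0511), and neither did 1.13 (SE 0.52) for CD4 depletion over anti-CTLA4 (limma adjusted p = 0.129).

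The promoters of 4 genes are shown because receptors of this family bind direct repeats of a half-site, searched here as AGGTCA or as AGTTCA or as GGGTCA or as GGTTCA. The windows hold the 250 bases before the transcript start that the table gives, from RefSeq on build GRCm38.p6, and each is written 5′ to 3′ on the strand of its gene. Capitals mark a DR5, a direct repeat of 2 such half-sites spaced by 5 bases, in Rarb (chr14:16575477-16575726, minus strand) and Cyp26a1 (chr19:37697558-37697807, plus strand). In Rara (chr11:98939461-98939710, plus strand) capitals mark single half-sites, and Aldh1a2 (chr9:71215539-71215788, plus strand), shown because it was the main dehydrogenase transcript in the libraries labelled anti-CTLA4, has no match in capitals.
Rarb: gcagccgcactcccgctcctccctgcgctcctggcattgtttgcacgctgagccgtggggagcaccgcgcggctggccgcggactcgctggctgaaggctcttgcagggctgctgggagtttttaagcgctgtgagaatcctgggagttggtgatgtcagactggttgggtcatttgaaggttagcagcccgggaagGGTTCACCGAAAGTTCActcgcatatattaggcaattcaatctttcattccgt
Cyp26a1: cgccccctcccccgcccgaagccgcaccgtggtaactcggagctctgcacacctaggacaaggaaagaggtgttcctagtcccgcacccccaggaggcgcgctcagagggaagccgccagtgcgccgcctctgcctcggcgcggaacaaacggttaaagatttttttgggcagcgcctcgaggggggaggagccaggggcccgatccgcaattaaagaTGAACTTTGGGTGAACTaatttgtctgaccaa
Rara: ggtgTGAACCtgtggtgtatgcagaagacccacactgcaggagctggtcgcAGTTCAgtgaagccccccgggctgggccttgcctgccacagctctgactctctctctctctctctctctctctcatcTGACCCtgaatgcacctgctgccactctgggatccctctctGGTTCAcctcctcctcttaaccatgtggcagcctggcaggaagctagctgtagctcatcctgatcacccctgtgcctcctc
Aldh1a2: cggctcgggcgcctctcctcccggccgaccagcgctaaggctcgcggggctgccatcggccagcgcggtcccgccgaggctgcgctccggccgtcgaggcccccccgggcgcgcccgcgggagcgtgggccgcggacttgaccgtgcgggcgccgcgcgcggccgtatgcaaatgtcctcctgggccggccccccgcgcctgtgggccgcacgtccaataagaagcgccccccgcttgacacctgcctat

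Both strands were searched, and in Cyp26a1 the repeat reads on the opposite strand. The repeat began 53 bases before the start of Rarb and 32 bases before that of Cyp26a1. A DR5 stood in 29 of 32851 such windows (0.0883%), and a single half-site, which every DR5 also holds, in 38.6%. Of the 9 genes, 7 had promoter entries, 0 with a DR5 and 3 (Aldh1a1, Rara and Rarg) with a half-site in at least 1 of them. Of the wider list, 34 had entries, 2 with a DR5. The 28 genes with a DR5 window gave 7 tested genes. Of these, 1 rose and 1 fell in anti-CTLA4 against IgG, where 9.29% and 28.8% of all tested genes did so. The median log2 fold change of the 7 was 0.38. The gene that rose was Tnfsf13b, which encodes the B cell survival factor BAFF and was named after its values were seen, with 1.37 (SE 0.28, limma adjusted p = 0.0129), and the gene that fell was Rarb. A match is a description of letters and shows no binding.

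Of other genes known to respond to retinoic acid, Cd38 and Rarres1 were also lowest in the libraries labelled anti-CTLA4. Cd38, an ectoenzyme that consumes NAD, stood at 9.37 and 2.31 FPKM in the libraries labelled anti-CTLA4, against 36.4 and 17.2 FPKM with IgG, and at 49.4, 25.5 and 43.0 FPKM with CD4 depletion. It rose by 2.73 (SE 0.53, limma adjusted p = 0.016) in CD4 depletion against anti-CTLA4, a call lost without anti-CTLA4 replicate 2, at 1.91, and without depletion replicate 3, at 2.64. Rarres1, a retinoic acid responsive gene, fell by 1.13 (SE 0.30, limma adjusted p = 0.0256) in anti-CTLA4 against IgG and rose by 1.29 (SE 0.27, limma adjusted p = 0.0183) in CD4 depletion against anti-CTLA4. Its fall was lost with median-of-ratios scaling (-0.95), with quantile normalization (-0.74), with no filter and without any 1 library of either group. Its rise was lost without anti-CTLA4 replicate 2 and without depletion replicate 2, the latter at 1.201. Of the 4 tested target genes, 0 rose and 2 fell in anti-CTLA4 against IgG, and 2 rose and 0 fell in CD4 depletion against anti-CTLA4. Over all tested genes, 9.29% were called higher and 28.8% lower in the former, and 22.8% and 6.59% in the latter. Rarres2, which encodes the chemoattractant chemerin, had another pattern and did not pass, with 5.39, 12.6 and 6.26 FPKM with CD4 depletion, 16.3 and 25.4 FPKM in the libraries labelled anti-CTLA4, and 22.5 and 8.17 FPKM with IgG. Its log2 fold changes were 0.54 (SE 0.51) for anti-CTLA4 over IgG and -1.32 (SE 0.47) for CD4 depletion over anti-CTLA4. Tgm2, a transglutaminase and a target in other cells, did not pass either, and its value of 145 FPKM in depletion replicate 1 stood beside 21.99 and 22.4 FPKM in replicates 2 and 3. The counts of target genes above cover that list only. Outside it, Nrip1, which retinoic acid induces in other cells, rose by 0.90 in anti-CTLA4 against IgG. Dhrs3 and Stra6, also outside it, were higher in that comparison, by 1.09 and 2.20.

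**Figure D4:**
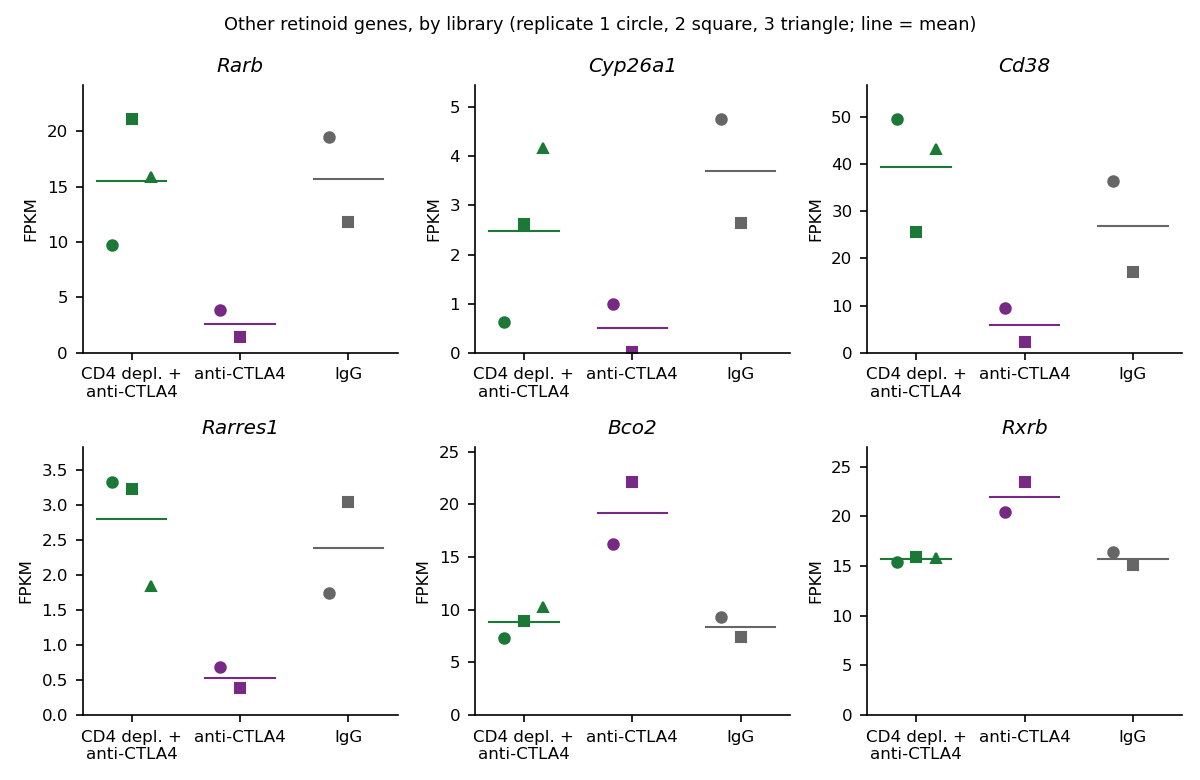
FPKM of 6 further retinoid genes in each library, 1 panel per gene with its own linear axis from 0, in the group order CD4 depletion with anti-CTLA4, anti-CTLA4 and IgG. Points are libraries and lines are group means: Rarb, Cd38 and Rarres1 are lowest, and Bco2 and Rxrb highest, in the 2 libraries labelled anti-CTLA4.

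Of 5 tested uptake and storage genes, 2 rose and 0 fell in anti-CTLA4 against IgG, and 0 rose and 1 fell in CD4 depletion against anti-CTLA4. Over all tested genes, 9.29% were called higher and 28.8% lower in the former, and 22.8% and 6.59% in the latter. Bco2, a carotenoid-cleaving dioxygenase of mitochondria, stood at 16.2 and 22.2 FPKM in the libraries labelled anti-CTLA4, against 9.27 and 7.43 FPKM with IgG, and at 7.33, 8.93 and 10.2 FPKM with CD4 depletion. It rose by 1.10 (SE 0.22, limma adjusted p = 0.0127) in anti-CTLA4 against IgG and fell by 1.03 (SE 0.20, limma adjusted p = 0.0162) in CD4 depletion against anti-CTLA4. With libraries set to the homeostatic microglia markers these became 0.25 and -0.16 and did not pass. The first was also lost without anti-CTLA4 replicate 2, without IgG replicate 1 and without IgG replicate 2, the last at 0.96. The second was also lost without anti-CTLA4 replicate 2.

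Of 9 tested enzymes that interconvert retinol and retinaldehyde, 1 rose and 3 fell in anti-CTLA4 against IgG. Those counts were near the shares over all tested genes, 9.29% called higher and 28.8% lower. Adh1, an alcohol dehydrogenase that can oxidise retinol, rose by 1.48 (SE 0.32, limma adjusted p = 0.0151) from low levels, with 2.86 and 2.46 FPKM in the libraries labelled anti-CTLA4, against 0.116 and 0.548 FPKM with IgG. Leaving out any 1 library of either group ended that call, at 1.24 to 1.71. Dhrs4, a carbonyl reductase that acts on retinaldehyde, fell by 1.06 (SE 0.19, limma adjusted p = 0.0108) in anti-CTLA4 against IgG and rose by 1.118 (SE 0.17, limma adjusted p = 0.0124) in CD4 depletion against anti-CTLA4. The fall was lost without anti-CTLA4 replicate 2 (-0.86), without IgG replicate 1 (-1.01) and without IgG replicate 2 (-1.11), and the rise without anti-CTLA4 replicate 2 (0.92).

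Of 9 tested receptors, partners and coregulators, 3 rose and 1, Rarb, fell in anti-CTLA4 against IgG. Over all tested genes, 9.29% were called higher and 28.8% lower. Rxrb, the main RXR transcript in every library, stood at 15.4, 15.9 and 15.8 FPKM with CD4 depletion, 20.4 and 23.5 FPKM in the libraries labelled anti-CTLA4, and 16.4 and 15.1 FPKM with IgG. It fell by 0.45 (SE 0.13, limma adjusted p = 0.0415) in CD4 depletion against anti-CTLA4, a direction that turned to 0.43 under the scaling to microglia markers. That call was also lost without either anti-CTLA4 library, without either IgG library and without depletion replicate 2 or 3, at -0.36 to -0.55. Ncoa3, a coactivator of nuclear receptors, rose by 0.92 (SE 0.17, limma adjusted p = 0.0114) in anti-CTLA4 against IgG and fell by 0.65 (SE 0.16, limma adjusted p = 0.0247) in CD4 depletion against anti-CTLA4, which turned to 0.19 under that scaling. Nrip1, a corepressor induced by retinoic acid in other cells, rose by 0.90 (SE 0.24, limma adjusted p = 0.0247) in anti-CTLA4 against IgG and stood at 0.01 under that scaling, where Ncoa3 stood at 0.10. Without IgG replicate 2 these rises of Ncoa3 and Nrip1 did not pass, at 0.91 and 0.83. Neither rise passed without anti-CTLA4 replicate 2 or without IgG replicate 1. The fall of Ncoa3 did not pass without depletion replicate 2 or 3, at -0.62 and -0.65, nor without anti-CTLA4 replicate 2.

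The genes with profiles most like those of Aldh1a2, Aldh1a3, Stra6 and Dhrs3 were sought among 7657 other genes with a mean of at least 5 FPKM. Likeness was the mean absolute difference between log2(FPKM + 1) profiles over the 7 libraries, each centred on its own mean. For Aldh1a2 these were Lum, with a difference of 0.32, Vtn, with 0.51, and Dcn, with 0.55, where its own profile had an SD of 1.74. Lum and Dcn encode matrix proteoglycans of fibroblasts, and Vtn, vitronectin, is known from brain pericytes. For Aldh1a3 they were Cdkn2a, a cell cycle inhibitor, with 0.29, Dusp4, a phosphatase of MAP kinases, with 0.30, and Ank, a pyrophosphate transporter, with 0.32, against an SD of 1.67. For Stra6 they included Igfbp5, a binding protein of insulin-like growth factors, with 0.29, and the basement membrane collagen Col4a2, with 0.33, against an SD of 1.13. For Dhrs3 they were the TNF receptor Tnfrsf1b, the signalling adaptor Dok1 and the stress response factor Nfe2l2, with 0.07 to 0.08 against an SD of 0.48. The libraries share groups and depth, so these numbers describe likeness and test nothing.

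**Figure D5:**
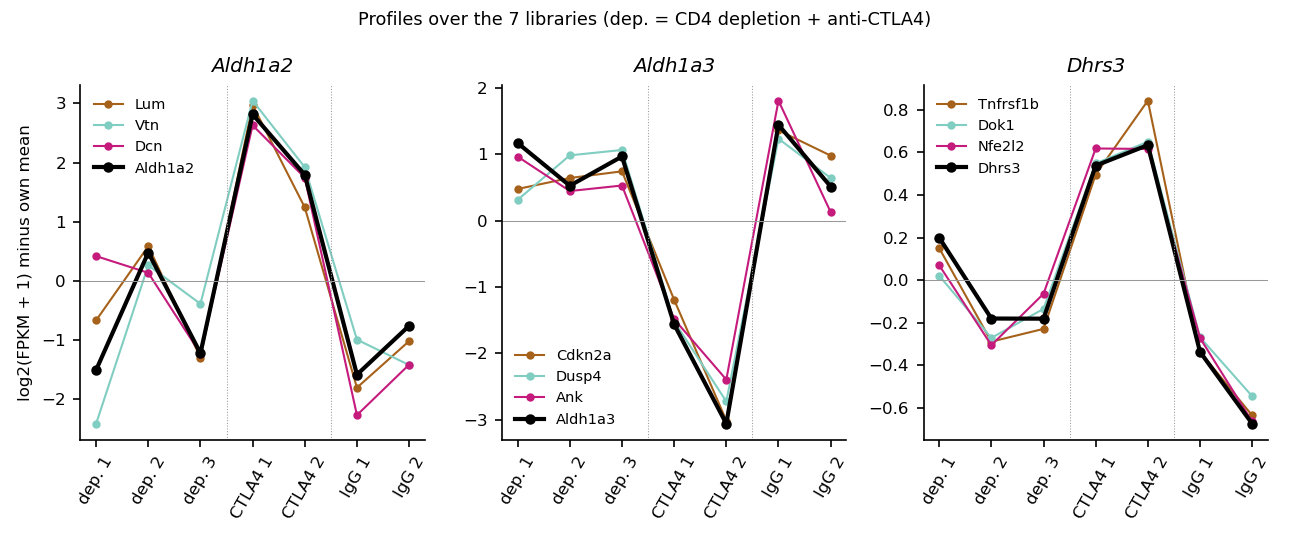
Lines give log2(FPKM + 1) minus its own mean over the 7 libraries for Aldh1a2, Aldh1a3 and Dhrs3 in black and for the 3 genes most like each in colour. Aldh1a2 peaks with Lum, Vtn and Dcn in the libraries labelled anti-CTLA4, where Aldh1a3 is lowest with Cdkn2a, Dusp4 and Ank.

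Markers of other cell types moved beside these genes, and their part in the results was not tested. In anti-CTLA4 against IgG, 9.29% of all tested genes were called higher and 28.8% lower. In CD4 depletion against anti-CTLA4, 22.8% were called higher and 6.59% lower. The summed level of 12 fibroblast and meningeal markers was 186, 86.1 and 48.9 FPKM with CD4 depletion, 396 and 206 FPKM in the libraries labelled anti-CTLA4, and 24.2 and 33.7 FPKM with IgG. Of these, 9 rose in anti-CTLA4 against IgG and 6 fell in CD4 depletion against anti-CTLA4, and none was listed at 0 in any library. Its defining markers Dcn, Lum and Col1a1 stood at 73.7 to 137, 11.4 to 40.3 and 22.7 to 45.4 FPKM in the libraries labelled anti-CTLA4, against 3.61 to 7.33, 0.497 to 1.59 and 0.677 to 2.80 FPKM with IgG. In depletion replicate 1, the list was at 186 FPKM with Aldh1a2 at 0.418 FPKM, while replicate 2 had 86.1 FPKM with Aldh1a2 at 4.62 FPKM. A large part of the sum in replicate 1 was the collagen Col3a1, at 79.6 FPKM, its highest value over all libraries. Single markers of the list went both ways between replicates 1 and 2. Dcn stood at 28.7 FPKM in replicate 1 and at 23.4 FPKM in replicate 2, and Lum at 2.30 and 6.88 FPKM. Slc6a13, a transporter of meningeal fibroblasts named after its values were seen, was at 0.052 FPKM in replicate 1 and at 1.04 FPKM in replicate 2. The summed level of 10 mural markers was 29.3 to 30.4 FPKM with CD4 depletion, 116 and 66.5 FPKM in the libraries labelled anti-CTLA4, and 21.2 and 20.6 FPKM with IgG. Most of the sum in the libraries labelled anti-CTLA4 was Vtn, at 87.3 and 39.4 FPKM, against 4.35 and 2.97 FPKM with IgG. Of the 9 mural markers tested, 4 rose and 1 fell in anti-CTLA4 against IgG. In CD4 depletion against anti-CTLA4, 1 rose and 4 fell. Cspg4 is on both the mural list and the tumour and oligodendrocyte precursor list below. Pdgfra is on both that list and the fibroblast list, so these lists are not independent.

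The summed level of 12 tumour and oligodendrocyte precursor markers was 162, 557 and 387 FPKM with CD4 depletion, 87.7 and 35.2 FPKM in the libraries labelled anti-CTLA4, and 669 and 919 FPKM with IgG. Of these, 11 fell in anti-CTLA4 against IgG and 8 rose in CD4 depletion against anti-CTLA4, and none was listed at 0. Aldh1a3, Rarb and Cd38 were also lowest in the libraries labelled anti-CTLA4. Beside the list at 162, 557 and 387 FPKM with CD4 depletion, Aldh1a3 stood at 32.0, 20.1 and 27.7 FPKM. Beside 669 and 919 FPKM with IgG it stood at 38.9 and 19.97 FPKM. Beside 87.7 and 35.2 FPKM in the libraries labelled anti-CTLA4 it stood at 3.97 and 0.763 FPKM. The list was not chosen for mesenchymal-like tumour cells, and the cells that gave Aldh1a3 were not tested. The list markers Olig1, Olig2 and Ptprz1 stood at 73.0, 14.8 and 11.5 FPKM in depletion replicate 1, against 440, 87.0 and 68.6 FPKM in IgG replicate 2. The summed level of 10 astrocyte markers was 183, 230 and 306 FPKM with CD4 depletion, 114 and 75.3 FPKM in the libraries labelled anti-CTLA4, and 204 and 274 FPKM with IgG. The summed level of 10 dendritic cell markers was 74.4 to 103 FPKM with CD4 depletion, 84.6 and 89.0 FPKM in the libraries labelled anti-CTLA4, and 96.5 and 87.5 FPKM with IgG, and most of it was Fscn1, an actin-bundling protein, at 52.6 to 86.1 FPKM over all 7 libraries. Of the 6 dendritic cell markers tested, 2 rose and 0 fell in anti-CTLA4 against IgG, with a median log2 fold change of 0.63. Their mean log2(FPKM + 1) over the list was 1.90 and 1.79 in the libraries labelled anti-CTLA4, against 1.32 and 1.37 with IgG, and 1 marker was listed at 0 in both IgG libraries.

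Blood and vessel markers moved as well. The 8 erythroid markers summed to 167, 580 and 217 FPKM with CD4 depletion, 982 and 942 FPKM in the libraries labelled anti-CTLA4, and 334 and 54.3 FPKM with IgG. Of the 6 tested, 4 rose and 0 fell in anti-CTLA4 against IgG. Hba-a1 and Hba-a2 lie at almost the same coordinates of chromosome 11, with near-equal means of 106 and 104 FPKM over all libraries. They enter the sum as separate markers, although they are not independent. The 10 endothelial markers summed to 26.6, 39.7 and 46.4 FPKM with CD4 depletion, 55.2 and 56.5 FPKM in the libraries labelled anti-CTLA4, and 20.9 and 21.9 FPKM with IgG. Of the 8 tested, 5 rose and 0 fell in anti-CTLA4 against IgG, and 0 rose and 2 fell in CD4 depletion against anti-CTLA4.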

How the data were processed

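RNA of sorted microglia from mouse brains with glioma was sequenced, giving 7 libraries in 3 groups. STAR, HOMER, DESeq2 and build mm10 are named, per the submitters' processing notes, with versions not given in the sources used here. The deposited FPKM values came, per the file headers, from HOMER's counting over exons on both strands with 1 entry kept per gene. A gene can therefore not be told apart from an antisense partner outside the table. No other gene of the table overlaps the 9. The table also holds another column, the transcript length deposited with each gene.

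By the depth that low values imply (transcripts of 200 to 800 nucleotides, values of up to about 20 reads, all within 0.1 of a whole read), libraries held 84100000 to 108000000 reads, 49900000 to 61800000 of them in genes. Numbers of reads in the text come from this depth. No count test was run.

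Here limma 3.58.1 (R 4.3.3) was run on log2(FPKM + 1) of genes that reached 1 FPKM in 2 or more libraries. All groups entered 1 model, whose variances were moderated along a trend with mean level, and tests were two-sided with Benjamini-Hochberg adjustment over all tested genes and a threshold of 0.05. The fit was checked on simulated data. The 9 genes, the lists, the motifs and the rule for named genes were chosen with earlier results of these data known. The rule took the 9 genes, up to 8 called genes of the wider retinoid list per comparison by smallest p, the 3 genes most alike for each of the 9 with a mean of at least 5 FPKM, and the first 3 markers of a cell type list. Genes outside it were chosen after their values were seen (Cyp26a1, Rarres2, Tgm2, Tnfsf13b, Slc6a13, Fscn1, Col3a1, Cspg4, Pdgfra and the Y-linked genes and Xist). Alternatives were a pseudocount of 0.1, no filter, 3 scalings, a replicate block and leaving out each library. A gene that the rule named is not reported here.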

Additional observations from a re-analysis of the deposited data

How the results depend on the processing

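In anti-CTLA4 against IgG, 4957 genes were called, 1210 higher and 3747 lower. The split was 2167 and 2048 with median-of-ratios scaling, 1928 and 2081 with quantile normalization, and 76 and 6067 with scaling to the homeostatic microglia markers. In CD4 depletion against anti-CTLA4, 3827 were called, 2969 higher and 858 lower, and the same scalings gave 1462 and 1685, 1452 and 1460, and 6737 and 93 (6830 genes). The median log2 fold change of all tested genes in the first comparison was -0.31, and it was 0.0017, -0.0091 and -0.99 under these scalings. With no filter 2477 genes were called in the second comparison. With 1 library left out the counts ran from 0 to 6069 and from 0 to 5291, and the calls in the wider retinoid list from 0 to 16 and from 0 to 14. A lone library left in a group was assumed to vary like the others. In the first comparison 0 genes were called without anti-CTLA4 replicate 2 and without IgG replicate 1, and 675 without IgG replicate 2. In the second, 0 were called without anti-CTLA4 replicate 2, 1386 without depletion replicate 2 and 917 without depletion replicate 3. In CD4 depletion against IgG limma called 0 genes under every alternative run. With the replicate number as a block, 2665 genes were called in the first comparison, and 0 genes, and 0 of the wider retinoid list, in the second. The labels do not say that numbers pair libraries. The difference of replicates 1 and 2 correlated across genes at -0.12 between anti-CTLA4 and IgG, at -0.20 between CD4 depletion and IgG, and at 0.10 between CD4 depletion and anti-CTLA4. Signs of called values turned in CD4 depletion against anti-CTLA4 for Dhrs3 (0.28), Ncoa3 (0.19) and Rxrb (0.43), all under scaling to the microglia markers. Of the 312 fold changes of the 8 tested genes of the 9 under alternatives, 283 moved by less than the spread between replicates. The cause was not tested.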
